A study of Mus musculus with 45 samples.

Results

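The noncystic tubule translatome was compared between male and female mice. Members were all 15 noncystic mice, 8 male and 7 female, of the 45 mice of the series, and every autosomal protein-coding gene that passed the authors' expression filter in both sexes was tested, which left 15294 genes of the 55401 counted. The mice were 7 weeks old (postnatal day 49), and the labels give them the genotype Pkd1fl/+; RosaEGFP-Rpl10a; Pax8rtTA; TetOCre and call them wild type. All had received doxycycline from postnatal day 28 to 42. Doxycycline switches on Cre recombinase in cells that express Pax8, which are tubule cells of the nephron, so that 1 copy of Pkd1 is lost and an EGFP-tagged ribosomal protein L10a is made in the same cells. Translating ribosome affinity purification (TRAP) then pulls down the mRNA held by the tagged ribosomes. The noncystic mice are thus heterozygous for Pkd1 in the sampled cells, and both sexes share this deletion, the drug and the transgenes. Other mice of the series had both copies of Pkd1 floxed (Pkd1KO) or both copies of Pkd1 and of Kif3a, a motor subunit that cilia need (Pkd1KO+ciliaKO). They are used below to measure the sex difference again, to choose the genes of a male-female index and to test interactions. By their labels they are other animals than the noncystic mice.

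The proximal tubule takes up organic anions and cations, drugs, amino acids and glucose, and it carries P450 enzymes, conjugating enzymes and steroid dehydrogenases much as the liver does. In the mouse these genes are known to depend on sex. Androgens act on the proximal tubule, in particular its last segment (S3), and growth hormone, prolactin and oestrogen act on the same genes in liver and kidney. No hormone was measured in these mice, so the comparison is one of males with females.

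Each library held between 92606333 and 125131053 counted fragments in males and between 93100477 and 122578318 in females. Levels are given as CPM, counts scaled to library size after TMM normalization, as the lowest, the median and the highest mouse of each sex, and fold changes as log2 of male over female with the standard error (SE) and the adjusted p of edgeR's quasi-likelihood test. An adjusted p of at most 0.05 is a call. Where levels of different genes are set side by side they are in TPM, which also takes transcript length into account. The TPM carry no TMM factors, so a comparison of the sexes in TPM can differ from that in CPM. Y-linked genes separated the libraries by their labelled sex without exception, at a sum of 119.8 to 177 CPM in males and at most 0.0704 CPM in females. A pair of mice stood apart. Female replicate 5 had 6.47 CPM of Kif3a against a female median of 23.1, which goes against its label as a mouse with intact Kif3a, and male replicate 3 lay between the sexes for most genes with a large difference. Results that rest on this pair are given with and without it. Male replicate 8 was also low for Kif3a, at 13.4 CPM against a male median of 22.1, and was kept in the main fit. In bulk libraries such as these, fewer cells of a type and less RNA per cell cannot be told apart.

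Of the 15294 genes, 4199 were called (27.5%), 2353 higher in males (15.4%) and 1846 higher in females (12.1%). The counts of the gene lists below are to be read against these shares. Most differences were small, and 65.1% of the called genes differed by less than 1.5-fold. At least 2-fold differences were called for 349 genes in the male direction (2.28%) and 316 in the female direction (2.07%), and at least 8-fold differences for 40 and 23 genes. For 900 genes (5.88%) the sexes did not overlap at all, with every male above every female for 3.26% and the reverse for 2.63%. The median log2 fold change over all genes was -0.01. Without female replicate 5 and male replicate 3, 5056 genes were called (33.1%), 2653 higher in males (17.3%) and 2403 higher in females (15.7%), with at least 2-fold differences for 2.48% and 2.31%, and 4001 genes were called with 1 sign in both fits. The split between the directions rests on the scaling: with library sizes alone and no TMM factors the median shifted by -0.148, and 1297 genes were called higher in males and 4449 higher in females. With a mean of at least 1 CPM in the higher sex, 270 genes were called at least 2-fold higher in males and 180 in females. The 270 genes held a median of 5.38% of the TPM of all tested genes in males and 1.76% in females. The 180 genes held 0.492% in males and 1.85% in females.

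**Figure D1:**
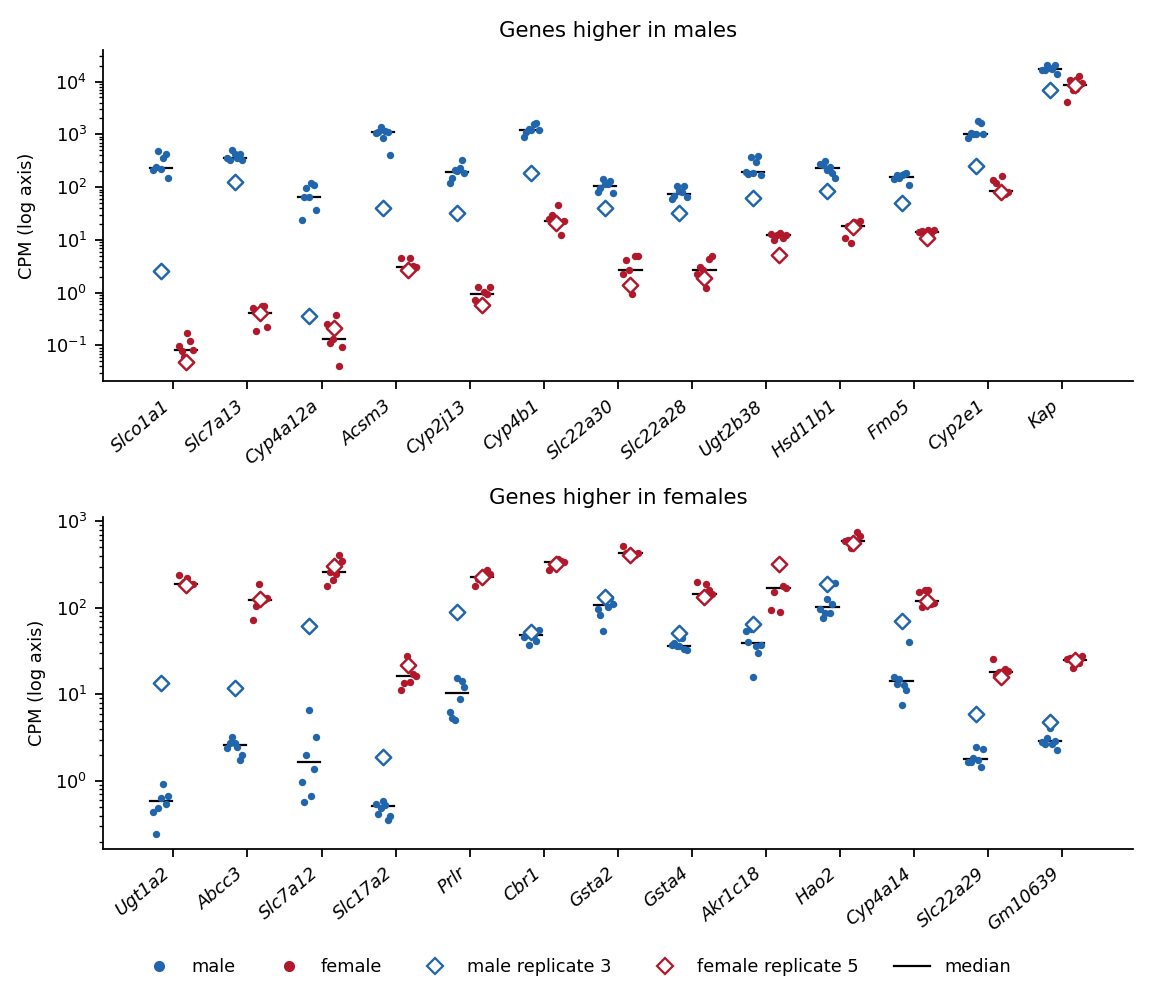
CPM (log axis) of 26 genes in each noncystic mouse, males in blue and females in red, with black bars at the medians and open diamonds for male replicate 3 and female replicate 5. Male replicate 3 is the male nearest the females for each gene shown but Cbr1 and Hao2.

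The organic anion transporters of the Slco family had the largest difference of the comparison. Slco1a1, an uptake carrier for steroid conjugates and bile acids, was at 2.57, 229 and 474 CPM in males and at 0.0480, 0.0836 and 0.171 CPM in females. The sexes did not overlap, although the lowest male, replicate 3, stood far under the next male at 146 CPM. Its log2 fold change was 11.42 ± 0.92 (edgeR adjusted p = 1.22e-07), with only 71 fragments in all 7 female libraries together. Slco3a1, another carrier of the family, was at 160.3, 252 and 315 CPM in males and at 52.1, 59.1 and 69.8 CPM in females, a log2 fold change of 2.04 ± 0.12 (edgeR adjusted p = 7.18e-09). Slco2a1, a prostaglandin carrier, was the only member called higher in females, at -0.67. In all, 3 of the 10 Slco genes tested were called higher in males and 1 higher in females, with a median of -0.01. Without male replicate 3 the number called was 7.

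The Slc22 family, the organic cation and anion transporters, was split between the directions, with 8 of 23 genes called higher in males, 6 higher in females and a median of 0.11. With no TMM factors this became 7 and 9 genes. Slc22a30 was at 40.4, 105 and 142 CPM in males and 0.936, 2.73 and 5.00 CPM in females, and Slc22a28 at 32.6, 73.1 and 106 and 1.25, 2.697 and 5.02 CPM. Both were higher in each male than in any female, at log2 fold changes of 5.02 ± 0.37 and 4.65 ± 0.31 (edgeR adjusted p = 5.34e-08 and 1.80e-08). Their relatives Slc22a29 and Slc22a27 went the other way: Slc22a29 was at 1.45, 1.80 and 6.01 CPM in males and 15.6, 18.2 and 26.0 CPM in females, and Slc22a27 at 0.173, 0.256 and 0.539 and 1.11, 1.93 and 2.47 CPM. Their log2 fold changes were -2.96 ± 0.27 and -2.57 ± 0.24 (edgeR adjusted p = 4.21e-07 and 5.50e-07). These 4 genes share between 39.3% and 64.2% of their transcript with relatives in stretches of 51 identical bases, so reads could be divided among them. Slc22a6 (Oat1), the main uptake carrier for organic anions on the blood side of the proximal tubule, was at 188, 550.5 and 749.6 CPM in males and 127, 157 and 250.2 CPM in females. All males but replicate 3 were above every female, and the log2 fold change was 1.59 ± 0.22 (edgeR adjusted p = 3.44e-05). Slc22a7 (Oat2) was not called (0.39 ± 0.24, edgeR adjusted p = 0.252).

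The exporters were split as well. Of 28 genes of the Abcb, Abcc, Abcg, Slc47 and Slc17 families, 9 were called higher in males and 7 higher in females, with a median of 0.07. Slc47a1 (Mate1), which expels organic cations into the urine, was at 220.2, 457 and 538 CPM in males and 186, 195 and 211 CPM in females (1.102 ± 0.14, edgeR adjusted p = 1.38e-05). Slc17a1, a phosphate and urate carrier, was at 219.8, 419.6 and 472 CPM in males and 169, 188 and 217 CPM in females (1.07 ± 0.13, edgeR adjusted p = 9.60e-06). Replicate 3 was the lowest male for both genes and still above the highest female. The neighbouring gene Slc17a2 had the opposite pattern, with 0.357, 0.508 and 1.90 CPM in males and 11.1, 16.5 and 27.5 CPM in females. Abcc3 (Mrp3), an export pump of the blood side for glucuronides, was at 1.74, 2.60 and 11.8 CPM in males and 72.7, 125 and 187 CPM in females. The highest male for Slc17a2 and Abcc3 was replicate 3, and no male reached a female. Their log2 fold changes were -4.73 ± 0.34 and -5.09 ± 0.39 (edgeR adjusted p = 4.64e-08 and 7.32e-08), and -5.14 and -5.66 without the pair of mice. Abcc4 (Mrp4), which exports organic anions into the urine, was 1.90-fold higher in females (edgeR adjusted p = 1.79e-06), with no overlap.

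Promoter sequences are shown for the 3 largest differences in each direction among the named genes that had an entry in RefSeq and a median of at least 10 CPM in the higher sex. Slc7a13, Cyp4a12a, Abcc3 and Slc7a12 had no entry. Each stretch is the 250 bases upstream of the annotated start farthest upstream, on the strand of the gene, in build GRCm38.p6. Capitals mark matches to the motifs named after the sequences.
Slco1a1 (chr6:141946963-141947212, minus strand): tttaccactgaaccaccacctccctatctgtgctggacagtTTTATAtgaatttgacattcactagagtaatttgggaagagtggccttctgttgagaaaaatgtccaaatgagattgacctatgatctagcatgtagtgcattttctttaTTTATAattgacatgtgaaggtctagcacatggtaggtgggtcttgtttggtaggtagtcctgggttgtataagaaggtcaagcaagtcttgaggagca
Acsm3 (chr7:119760673-119760922, plus strand): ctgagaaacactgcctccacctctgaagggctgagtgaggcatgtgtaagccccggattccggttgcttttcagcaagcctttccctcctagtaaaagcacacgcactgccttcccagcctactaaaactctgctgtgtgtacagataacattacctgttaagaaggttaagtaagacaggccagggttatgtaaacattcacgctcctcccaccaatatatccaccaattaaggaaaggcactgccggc
Cyp2j13 (chr4:96077548-96077797, minus strand): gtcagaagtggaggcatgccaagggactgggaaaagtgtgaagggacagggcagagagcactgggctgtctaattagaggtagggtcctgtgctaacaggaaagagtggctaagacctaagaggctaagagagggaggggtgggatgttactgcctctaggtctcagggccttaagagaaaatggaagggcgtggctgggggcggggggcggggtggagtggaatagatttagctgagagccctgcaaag
Ugt1a2 (chr1:88200361-88200610, plus strand): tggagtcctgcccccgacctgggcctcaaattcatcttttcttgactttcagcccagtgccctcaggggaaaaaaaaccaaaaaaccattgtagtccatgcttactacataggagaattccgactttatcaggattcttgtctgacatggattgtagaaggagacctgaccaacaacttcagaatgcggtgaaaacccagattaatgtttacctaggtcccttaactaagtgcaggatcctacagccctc
Slc17a2 (chr13:23806743-23806992, plus strand): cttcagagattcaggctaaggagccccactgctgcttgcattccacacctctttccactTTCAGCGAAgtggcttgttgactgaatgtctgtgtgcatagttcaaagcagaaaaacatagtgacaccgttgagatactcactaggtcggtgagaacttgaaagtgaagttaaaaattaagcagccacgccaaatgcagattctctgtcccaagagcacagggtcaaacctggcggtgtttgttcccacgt
Prlr (chr15:10176988-10177237, plus strand): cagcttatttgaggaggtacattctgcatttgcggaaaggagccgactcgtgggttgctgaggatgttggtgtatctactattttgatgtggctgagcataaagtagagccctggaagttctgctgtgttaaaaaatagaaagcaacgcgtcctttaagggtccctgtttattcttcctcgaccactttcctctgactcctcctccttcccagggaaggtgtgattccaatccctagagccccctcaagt

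The first 3 belong to genes higher in males and the last 3 to genes higher in females. Each motif was searched on both strands of 1 such stretch for each of 11822 tested genes with an entry. The steroid receptor half-site AGAACA was in 11% of all stretches, in 18% of the 266 that belong to genes at least 2-fold higher in males and in 17.8% of the 236 of genes at least 2-fold higher in females. The full palindrome, which sets that half-site on each strand across 3 bases, was in 1 stretch of all and in none of either group. The STAT palindrome TTCNNNGAA was in 6.11% of all stretches, 5.64% of the male group and 8.9% of the female group. The HNF1 half-site GTTAAT was in 4.54%, 9.77% and 10.6%, the HNF4 site CAAAGTCCA in 0.381%, 1.13% and 1.27%, and the TATA box TATAAA in 7.19%, 13.2% and 10.6%. In the sequences shown, Slco1a1 held the TATA letters on the opposite strand at positions -209 to -204 and -99 to -94 from the start, and Slc17a2 held the STAT letters at -191 to -183. A match of letters is no evidence of binding, and these shares are descriptions.

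Among the P450 enzymes of families 1 to 3, which oxidise drugs, steroids and fatty acids, 7 of 30 genes were called higher in males and 5 higher in females, with a median of -0.12, and with no TMM factors 7 in each direction. Cyp2j13, of a subfamily that oxidises arachidonic acid, was at 32.5, 193 and 326 CPM in males and 0.511, 0.929 and 1.28 CPM in females. Even the lowest male, replicate 3, was far above the highest female, and the log2 fold change was 7.63 ± 0.44 (edgeR adjusted p = 5.22e-09). Cyp2e1, which oxidises ethanol, acetone and paracetamol, was at 256, 1019 and 1792 CPM in males and 74.2, 86.1 and 162 CPM in females, a log2 fold change of 3.35 ± 0.32 (edgeR adjusted p = 8.45e-07). Cyp2d26 was the opposite, at 39.3, 47.1 and 60.7 CPM in males and 88.6, 114 and 155 CPM in females (-1.33 ± 0.12, edgeR adjusted p = 4.32e-07), with 20.2% of its transcript shared with relatives. Per length, Cyp2e1 stood at a median of 1608 TPM in males and 151 TPM in females, and Cyp2j13 at 139 and 0.741 TPM.

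Family 4 of the P450 enzymes, which oxidises the end carbon of fatty acids, had 6 of 15 genes called higher in males and 3 higher in females, with a median of 0.14, and with no TMM factors 5 in each direction. Cyp4b1 was the most abundant of those named in males. Its levels were 186, 1209.8 and 1663 CPM in males and 12.5, 22.7 and 45.8 CPM in females, or a median of 1815 TPM in males and 40.02 TPM in females, and its log2 fold change was 5.49 ± 0.40 (edgeR adjusted p = 4.81e-08). Cyp4a12a, which makes the vasoconstrictor 20-HETE from arachidonic acid, was at 0.359, 66.0 and 119.6 CPM in males and 0.0400, 0.133 and 0.372 CPM in females. Male replicate 3 fell among the females, and the next male was at 23.8 CPM. The log2 fold change was 8.56 ± 0.90 with all mice (edgeR adjusted p = 2.50e-06) and 8.79 without the pair (edgeR adjusted p = 4.80e-09), while 60.2% of its transcript is shared with Cyp4a12b, so that part of the reads may belong to either. Cyp4a14 was higher in females, at 7.595, 14.3 and 69.6 CPM in males and 102, 120.5 and 161 CPM in females (-2.50 ± 0.40, edgeR adjusted p = 1.61e-04).

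Carboxylesterases, which cleave ester drugs and lipids, were called in 1 direction in noncystic mice. Of 12, 8 were higher in males and none higher in females, with a median of 1.32. The same counts held with no TMM factors and without the pair of mice. In Pkd1KO mice 6 were called higher in males and 1 higher in females, and the same in Pkd1KO+ciliaKO mice. Ces1f was at 193, 539.5 and 707 CPM in males and 37.7, 64.7 and 95.1 CPM in females (2.93 ± 0.24, edgeR adjusted p = 1.30e-07). Ces2h was at 0.467, 2.54 and 3.96 CPM in males and 0.0905, 0.170 and 0.439 CPM in females (3.49 ± 0.40, edgeR adjusted p = 5.98e-06), and replicate 3 was the lowest male for both. Among the flavin monooxygenases, which oxidise nitrogen and sulphur in drugs, 2 of 5 were called, both higher in males, and with no TMM factors 2 in each direction. Fmo5 was at 50.9, 157 and 186 CPM in males and 10.7, 14.3 and 15.6 CPM in females, a 10.5-fold difference (log2 3.39 ± 0.22, edgeR adjusted p = 1.35e-08) with no overlap.

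**Figure D2:**
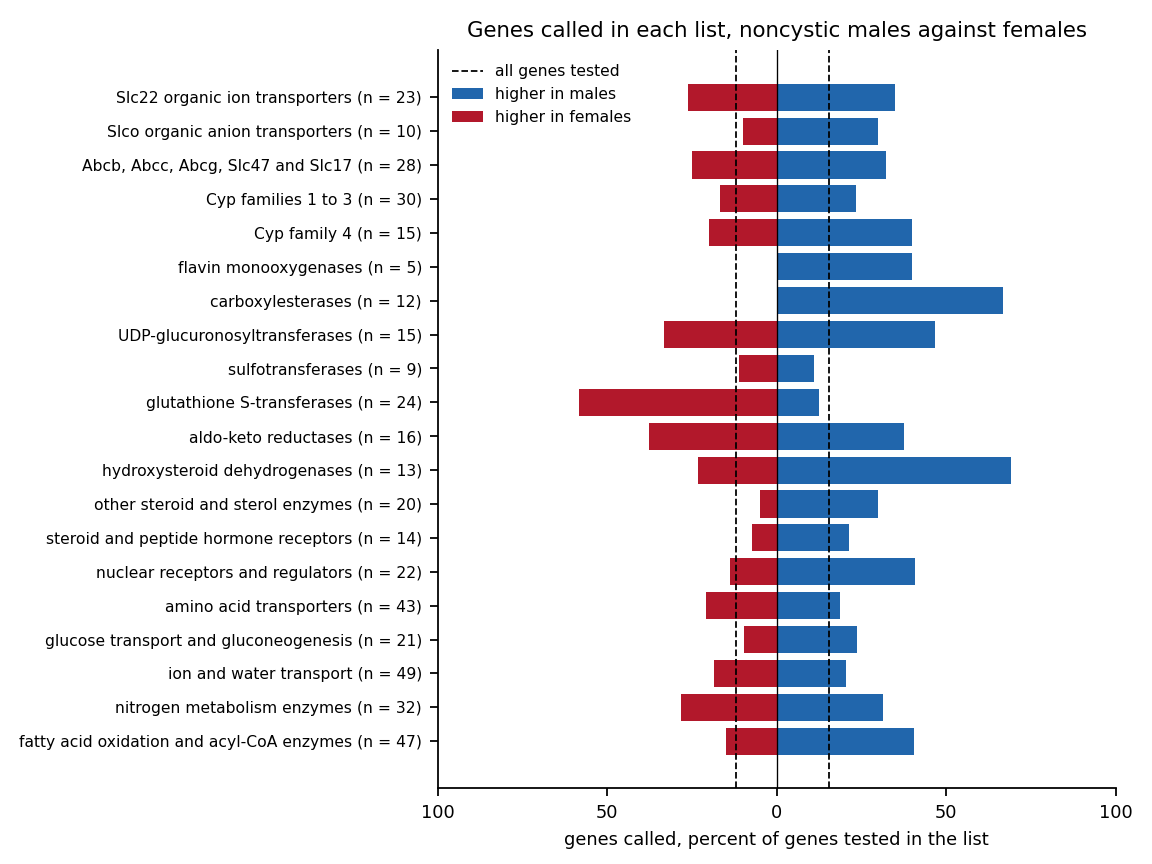
Percent of the tested genes of each list that were called higher in males (blue, to the right) or in females (red, to the left), with the number tested in brackets and dashed lines at the percent over all 15294 genes, 15.4% and 12.1%. Carboxylesterases and hydroxysteroid dehydrogenases lie mostly on the male side and glutathione S-transferases mostly on the female side.

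UDP-glucuronosyltransferases join glucuronic acid to bilirubin, steroids and drugs. Of 15 genes, 7 were called higher in males and 5 higher in females, with a median of 0.47. Ugt2b38 was at 61.3, 189 and 396 CPM in males and 5.23, 12.4 and 13.3 CPM in females (4.38 ± 0.34, edgeR adjusted p = 9.14e-08), and 45.7% of its transcript is shared with relatives. Ugt1a2 was at 0.248, 0.591 and 13.4 CPM in males and 183, 189 and 239.9 CPM in females. Male replicate 3 was the highest male by far, and the other 7 males lay under 1 CPM. The log2 fold change was -6.51 ± 0.80 with all mice (edgeR adjusted p = 1.19e-05) and -8.495 without the pair (edgeR adjusted p = 1.61e-13). Ugt1a7c, which lies at the same locus, was at 19.1, 63.7 and 84.4 CPM in males and 5.85, 9.46 and 16.4 CPM in females (2.62 ± 0.27, edgeR adjusted p = 1.96e-06). The Ugt1a genes have their own first exon and share the remaining ones: 59.3% of the exon bases of Ugt1a2 and 51.4% of those of Ugt1a7c overlap another gene of the locus, so reads there could be counted for either gene or for none. Ugt8a, which makes galactosylceramide, was at 62.7, 112 and 139 CPM in males and 9.28, 11.3 and 13.7 CPM in females (3.28 ± 0.15, edgeR adjusted p = 1.57e-10). Of the 9 sulfotransferases, 1 was called in each direction, and with no TMM factors 4 higher in females: Sult1d1 at 0.41 (edgeR adjusted p = 0.0266) and Sult4a1 at -0.76 (edgeR adjusted p = 0.0322). The sexes overlapped for both, and the call of Sult1d1 was lost without the pair of mice (edgeR adjusted p = 0.0688). The share of sulfotransferases called, 22.2%, lay under the 27.5% of all genes tested.

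Glutathione S-transferases, which detoxify electrophiles, were mostly higher in females: 14 of 24 were called in that direction and 3 in the other, with a median of -0.45, and with no TMM factors 15 and 2. Gsta2 was at 54.5, 107 and 132 CPM in males and 400.4, 427 and 512 CPM in females, a log2 fold change of -2.04 ± 0.15 (edgeR adjusted p = 4.81e-08), with 74.1% of its transcript shared with relatives. Gsta4, which acts on the lipid peroxidation product 4-hydroxynonenal, was at 32.3, 36.6 and 51.2 CPM in males and 133, 146 and 196 CPM in females (-2.02 ± 0.11, edgeR adjusted p = 2.67e-09). No male reached a female for either gene. Gm10639, a predicted gene beside Gsta2 that shares 55.1% of its transcript with relatives, was at 2.29, 2.87 and 4.76 CPM in males and 20.4, 25.2 and 28.0 CPM in females (-2.96 ± 0.14, edgeR adjusted p = 2.64e-10). On the male side Gstz1, the maleylacetoacetate isomerase of tyrosine breakdown, was 1.41-fold higher with overlapping sexes (edgeR adjusted p = 0.00371), and Gstp3 was at 0.0359, 0.349 and 0.472 CPM in males with 16 fragments in all females together. Cbr1, a carbonyl reductase of prostaglandins and quinones, had the smallest p of the comparison. It was at 37.5, 48.9 and 55.4 CPM in males and 271, 337 and 363 CPM in females, 6.88-fold higher in females (log2 -2.78 ± 0.09, edgeR adjusted p = 1.59e-12).

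Steroid-converting enzymes were called often. Of 13 hydroxysteroid dehydrogenases, 9 were higher in males and 3 higher in females, with a median of 0.78, and with no TMM factors 7 and 3. Hsd11b1, which regenerates active glucocorticoid, was at 85.1, 226 and 315 CPM in males and 8.63, 18.1 and 22.7 CPM in females (3.65 ± 0.28, edgeR adjusted p = 6.52e-08). H6pd, which supplies the NADPH for it, was 1.58-fold higher in males (edgeR adjusted p = 8.69e-06). Hsd11b2, which inactivates glucocorticoid in the collecting duct and thereby keeps it off the mineralocorticoid receptor, was higher in females at -0.49 ± 0.11 (edgeR adjusted p = 0.00299). It is named for its role opposite to Hsd11b1, after its values were seen. Hsd11b2 is also among the principal cell markers followed below, a list with a median of -0.42. Hsd17b11, a 17-beta dehydrogenase of androgens on lipid droplets, was at 98.3, 307 and 422 CPM in males and 54.6, 65.7 and 71.0 CPM in females (2.15 ± 0.22, edgeR adjusted p = 2.16e-06). Hsd17b14, of the same family, was at 4.18, 4.95 and 8.60 CPM in males and 9.62, 20.6 and 26.4 CPM in females (-1.92 ± 0.19, edgeR adjusted p = 1.17e-06). Hsd3b5 was called higher in females from levels under 1 CPM in every mouse, and shares 35.5% of its transcript with other annotated genes.

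Aldo-keto reductases, which reduce keto groups of steroids and prostaglandins, had 6 of 16 genes called in each direction, with a median of -0.05, and with no TMM factors 4 were called higher in males and 7 higher in females. Akr1c21, a 3-alpha and 17-alpha hydroxysteroid dehydrogenase, was at 571, 858 and 1081 CPM in males and 143, 237 and 297 CPM in females (1.91 ± 0.16, edgeR adjusted p = 2.65e-07). Akr1c18, which inactivates progesterone, was at 15.7, 39.1 and 64.8 CPM in males and 89.6, 170.0 and 322 CPM in females (-2.17 ± 0.31, edgeR adjusted p = 6.20e-05). No male reached a female, and the log2 fold change was -2.12 without the pair of mice. Among 20 other steroid and sterol enzymes, 6 were called higher in males and 1 higher in females, with a median of 0.10, and with no TMM factors 6 and 4. The share called was 35%, against 27.5% of all genes tested. Cyp7b1, which hydroxylates oxysterols and androgen metabolites, was at 3.25, 32.5 and 98.3 CPM in males and 1.26, 1.90 and 2.81 CPM in females. The males spread widely, with replicates 3 and 5 lowest at 3.25 and 6.12 CPM, and all stayed above the highest female. The log2 fold change was 4.41 ± 0.61 (edgeR adjusted p = 4.04e-05).

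Of 14 hormone receptors tested, the prolactin receptor had the largest difference. Esr1, the oestrogen receptor alpha, was 1.86-fold higher in males, at 36.5, 49.01 and 53.1 CPM against 19.4, 27.7 and 33.6 CPM, without overlap (log2 0.90 ± 0.12, edgeR adjusted p = 2.29e-05). Igf1r, the receptor of insulin-like growth factor 1, was 1.63-fold higher in males, also without overlap (edgeR adjusted p = 1.86e-05). Prlr, the prolactin receptor, was at 5.07, 10.4 and 90.5 CPM in males and 181, 226 and 271 CPM in females. Male replicate 3 had 90.5 CPM and the other 7 males had at most 15.6 CPM. The log2 fold change was -3.52 ± 0.56 (edgeR adjusted p = 1.60e-04) and -4.57 without the pair (edgeR adjusted p = 5.73e-09). Ghr, the growth hormone receptor, at 0.12 (edgeR adjusted p = 0.414), and Nr3c1, the glucocorticoid receptor, at 0.04 (edgeR adjusted p = 0.67), were not called. Nr3c2, the mineralocorticoid receptor, was not called with all mice (-0.20, edgeR adjusted p = 0.126) and was called higher in females without the pair (-0.30, edgeR adjusted p = 0.00525). In all, 3 of 14 receptors were called higher in males and 1 higher in females, with a median of 0.06, and the share called, 28.6%, lay near the 27.5% of all genes tested. Without the pair it was 3 and 4, and with no TMM factors 2 and 5.

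Among 22 nuclear receptors and other regulators of tubule metabolism, 9 were called higher in males and 3 higher in females, with a median of 0.12. Without the pair of mice it was 9 and 6, and with no TMM factors 6 and 8. Nr1h4 (Fxr), the bile acid receptor, was at 142, 213 and 304 CPM in males and 77.8, 95.1 and 117 CPM in females (1.18 ± 0.14, edgeR adjusted p = 9.77e-06). Hnf4g, a relative of the proximal tubule regulator Hnf4a, was 1.75-fold higher in males (edgeR adjusted p = 9.74e-04). Nr1i2 (Pxr), the receptor that drug-like compounds activate, was 1.54-fold higher in females (edgeR adjusted p = 2.77e-04), with no overlap. Socs2, which growth hormone induces through Stat5b and which restrains its signal, was at 10.9, 14.3 and 57.8 CPM in males and 24.1, 34.1 and 74.1 CPM in females. Male replicate 5 stood above most females, and the log2 fold change was -1.07 ± 0.34 (edgeR adjusted p = 0.0251). The call of Socs2 was lost without female replicate 2, at an edgeR adjusted p of 0.0687.

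Amino acid transporters held a pair of related genes with opposite differences. Slc7a13, which with its partner takes up cystine, aspartate and glutamate in the S3 segment, was at 124, 358 and 496 CPM in males and 0.187, 0.413 and 0.570 CPM in females. Its log2 fold change of 9.80 ± 0.35 was the second largest of the named genes (edgeR adjusted p = 5.30e-12), with replicate 3 the lowest male. Slc7a12, an amino acid carrier of the same family, was at 0.566, 1.68 and 62.1 CPM in males and 178, 259 and 407 CPM in females. Male replicate 3 had 62.1 CPM and the next highest male had 6.68 CPM, and the log2 fold change was -4.84 ± 0.93 with all mice (edgeR adjusted p = 9.13e-04) and -6.95 without the pair (edgeR adjusted p = 9.35e-08). Per length, Slc7a13 in males and Slc7a12 in females stood at medians of 571 and 565 TPM. Of the 43 amino acid transporters tested, 8 were called higher in males and 9 higher in females, with a median of -0.18, and with no TMM factors 6 and 16. Slc36a1, a proton-coupled carrier of small amino acids, was 1.72-fold higher in males (edgeR adjusted p = 4.83e-05), and Slc6a18, which takes up glycine, was 1.58-fold higher in females (edgeR adjusted p = 2.49e-04).

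Carriers and enzymes of glucose handling and carriers of ions were called in both directions. In the glucose list 5 of 21 genes were called higher in males and 2 higher in females, with a median of 0.10, and with no TMM factors 5 and 6. The share called, 33.3%, lay near the 27.5% of all genes tested. Slc5a8, a sodium-coupled carrier of lactate and pyruvate, was at 237, 324 and 422 CPM in males and 84.8, 95.6 and 109 CPM in females (1.79 ± 0.11, edgeR adjusted p = 6.80e-09). Pcx, pyruvate carboxylase, was 2.23-fold higher in males (edgeR adjusted p = 2.31e-05), and Slc2a1, the basal glucose carrier, was 1.34-fold higher in females (edgeR adjusted p = 0.00766). Of 49 carriers and channels for sodium, phosphate, chloride, water and potassium, 10 were called higher in males and 9 higher in females, with a median of -0.04. Without the pair of mice it was 13 and 18, and with no TMM factors 6 and 19. Kcnj15, a potassium channel, was 1.87-fold higher in males (edgeR adjusted p = 8.26e-05). Aqp4, a water channel of the principal cell, was 1.72-fold higher in females (edgeR adjusted p = 0.00303).

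The list for polyamine, urea cycle, creatine and methyl group metabolism also held enzymes of other functions, such as Acy3, Cndp2 and Hao2. Of its 32 genes, 10 were called higher in males and 9 higher in females, with a median of 0.16. With no TMM factors the counts were 9 and 12. Odc1, the rate-limiting enzyme of polyamine synthesis, was at 598, 1931 and 2753 CPM in males and 319, 473 and 501 CPM in females (2.06 ± 0.24, edgeR adjusted p = 6.31e-06); 54.3% of its transcript is shared with other annotated genes. Acy3, which deacetylates mercapturic acids, was at 1715, 2662 and 3474 CPM in males and 502, 632 and 1028 CPM in females (1.96 ± 0.16, edgeR adjusted p = 1.46e-07). Cndp2, a dipeptidase, was at 571, 2898 and 4811 CPM in males and 368, 417 and 812 CPM in females, and replicate 3 was the only male within the female range (2.61 ± 0.32, edgeR adjusted p = 1.22e-05). Hao2, a peroxisomal oxidase of hydroxy acids, was the reverse at 76.6, 104 and 196 CPM in males and 491, 595 and 744 CPM in females (-2.31 ± 0.19, edgeR adjusted p = 2.01e-07). Oat, ornithine aminotransferase, was 2.02-fold higher in females without overlap (edgeR adjusted p = 1.53e-07).

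Fatty acid oxidation and acyl-CoA genes were called higher in males more often than higher in females, 19 against 7 of 47. However, the median of 0.03 lay close to that of all genes, and the counts became 16 and 11 with no TMM factors. In Pkd1KO mice 13 were called higher in males and 12 higher in females, and in Pkd1KO+ciliaKO mice 11 and 8. Acsm3, a mitochondrial medium-chain acyl-CoA synthetase, was at 40.3, 1085 and 1390.3 CPM in males and 2.71, 3.07 and 4.63 CPM in females. Replicate 3 was the lowest male and the next was at 411 CPM, and the log2 fold change was 8.05 ± 0.60 (edgeR adjusted p = 5.12e-08). The exons of Acsm3 overlap those of Eri2 on the opposite strand over 39.8% of their bases, and the strand setting of the counting is not given in the sources used here. Crot, which moves shortened acyl chains out of peroxisomes as carnitine esters, was at 441, 712 and 861 CPM in males and 164, 188 and 230.2 CPM in females (1.79 ± 0.13, edgeR adjusted p = 4.77e-08). On the female side stood the acyl-CoA thioesterases Acot7, at 20.9, 27.7 and 31.6 CPM in males and 71.5, 83.2 and 119.7 CPM in females (-1.77 ± 0.11, edgeR adjusted p = 1.24e-08), and Acot3, which was 2.76-fold higher in females (edgeR adjusted p = 4.21e-07). For Acot3, 22.8% of the transcript is shared with other annotated genes.

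Several genes of other functions were among the 10 with the smallest p in each direction. Kif20b, a kinesin of the dividing cell, was at 21.8, 54.4 and 76.5 CPM in males and 3.00, 3.89 and 4.62 CPM in females, a log2 fold change of 3.72 ± 0.23 (edgeR adjusted p = 1.12e-08) with no overlap. Tmigd1, an adhesion protein of the proximal tubule, was at 148, 285 and 315 CPM in males and 45.9, 61.8 and 72.0 CPM in females (2.15 ± 0.14, edgeR adjusted p = 1.48e-08). Fbxo40 and Atrnl1 were 3.81-fold and 2.51-fold higher in males. Foxq1, a forkhead transcription factor, was at 8.01, 11.2 and 13.2 CPM in males and 41.2, 53.7 and 70.7 CPM in females (-2.37 ± 0.13, edgeR adjusted p = 1.90e-09), but 66.1% of its exon bases overlap a gene on the opposite strand. Gbp3, an interferon-inducible GTPase, was at 3.87, 6.28 and 10.02 CPM in males and 39.4, 56.6 and 90.1 CPM in females (-3.21 ± 0.21, edgeR adjusted p = 1.35e-08). Lyplal1, Rrh and Sytl3 were 2.79-fold, 5.13-fold and 3.39-fold higher in females, each without overlap. For Sytl3, 48.1% of the transcript is shared with other annotated genes.

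Families that sit side by side in the genome held genes of opposite direction. On chromosome 4, within chr4:115299046-115647723, 5 of 7 Cyp4 genes were called higher in males and 1 higher in females: Cyp4a12a and Cyp4a12b at one end and Cyp4b1 at the other were higher in males, Cyp4a14 between them was higher in females, and Cyp4a10 next to it was not called (-0.21 ± 0.13, edgeR adjusted p = 0.276). On chromosome 19, the order Slc22a27, Slc22a28, Slc22a29, Slc22a30 alternated between higher in females and higher in males within chr19:7864388-8405111. In the Akr1c group of chromosome 13, 3 genes were called higher in males and 5 higher in females, and the outermost genes, Akr1c14 (1.27 ± 0.16) and Akr1c21 (1.91 ± 0.16), were higher in males. By contrast all 5 genes of the Gsta group on chromosome 9 were called higher in females, and 8 of 12 carboxylesterases on chromosome 8 were called higher in males. In the Ugt2 group on chromosome 5, Ugt2b34 was at -1.25 ± 0.12 and Ugt2b38 at 4.38 ± 0.34. Per length, the most abundant gene of the Akr1c group in males was Akr1c21, at a median of 1992 TPM, and in females also Akr1c21, at 598 TPM, followed by Akr1c18 at 548 TPM. Several neighbours share long identical stretches, and the way that reads matching several genes were treated is not given in the sources used here.

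**Figure D3:**
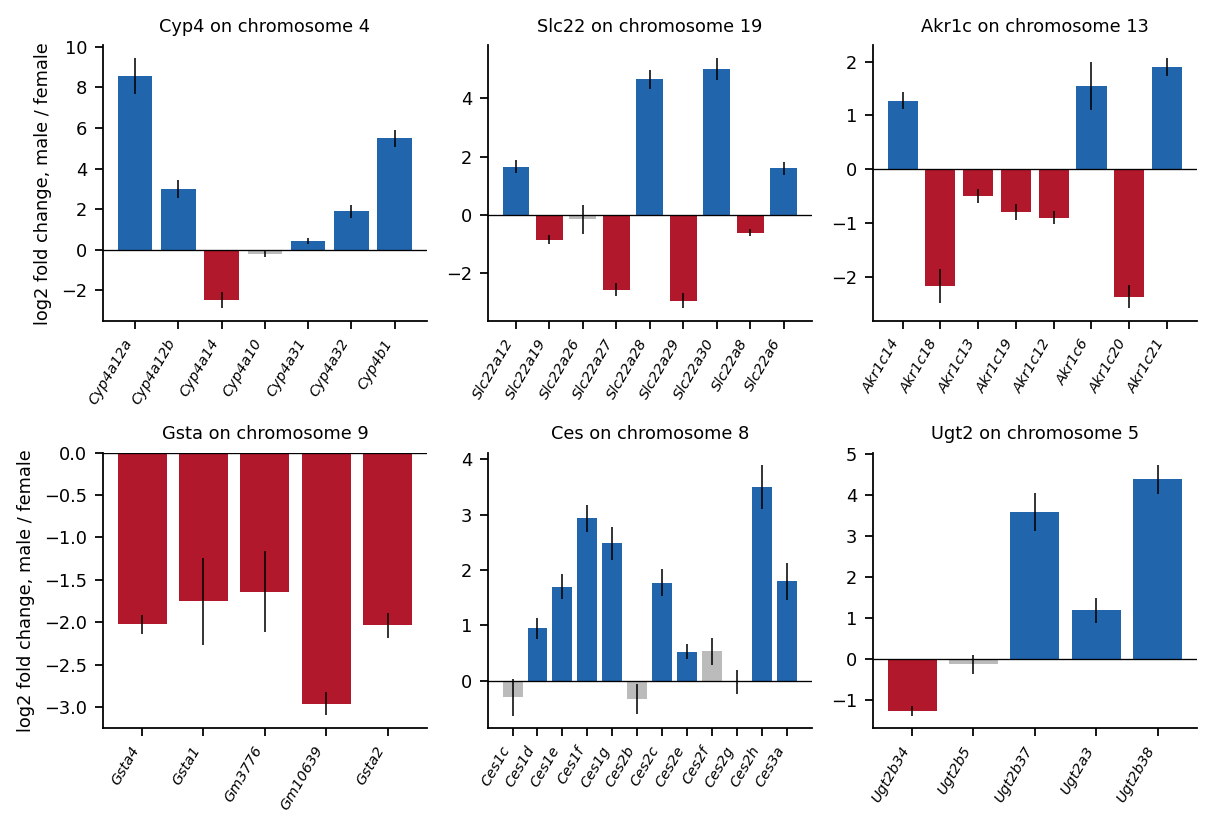
Log2 fold change of male over female (bars, with the SE) of the tested genes of 6 families, in their order along the chromosome and not to distance. Blue bars were called higher in males, red bars higher in females and grey bars were not called; the vertical axes differ between the panels.

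A list of 20 kidney genes known to be higher in males or after androgen had 20 called higher in males, with a median of 3.50. The known example Kap, the kidney androgen-regulated protein, was the most abundant of the named genes, at a median of 82666 TPM in males and 48941 TPM in females. In CPM it was at 6915, 17167 and 20428 in males and 4054, 8785 and 12653 in females, with male replicate 3 inside the female range (0.95 ± 0.23, edgeR adjusted p = 0.00536). Gusb, beta-glucuronidase, was 2.15-fold higher in males (edgeR adjusted p = 2.06e-04), and Timd2 7.96-fold (edgeR adjusted p = 1.24e-06). Of 15 genes listed as known for higher expression in females, 11 were called in that direction, with a median of -2.04. Fmo5 of this list was higher in males, and Cyp2a4 (0.80 ± 0.36, edgeR adjusted p = 0.11), Slc22a7 and Slco1a6 (-0.42 ± 0.16, edgeR adjusted p = 0.0562) were not called, and 56.7% of the Cyp2a4 transcript is shared with relatives. Without the pair of mice Cyp2a4 was called higher in males (1.01, edgeR adjusted p = 0.00616) and Slco1a6 higher in females (-0.38, edgeR adjusted p = 0.0346). These lists were drawn up with results of these data known, so their counts are not independent evidence.

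Male replicate 3 was examined gene by gene. For 45 named genes with a called difference of at least 4-fold, its level was placed on the log2 CPM scale between the female median (0%) and the median of the other 7 males (100%). The median place was 59.3%, and the range ran from -6.98% to 102%. Cyp4a12b, Cndp2, Cyp4a12a, Odc1 and Cyp7b1 lay nearest the female median, at up to 17.4%, and Slc7a12 and Prlr were at 27.2% and 28.2%. Slco1a1 and Acsm3 were at 43.0% and 43.9%. Slc7a13 was at 84.1%, and Foxq1, Cbr1, Akr1c20, Hsd3b5 and Rrh lay over 90%. A male-female index, the mean log2 CPM of 467 genes at least 2-fold higher in Pkd1KO males (3.05% of those tested) minus that of 259 genes at least 2-fold higher in Pkd1KO females (1.69%), was 0.971 in this mouse, at least 1.71 in the other males and at most -0.645 in females. Female replicate 5, the mouse with low Kif3a, lay within the range of the other females for the index. Male replicate 3 had the lowest sums of all 8 males for the S1 and S2 markers, at 8345 CPM against a male median of 12223 CPM, and for the S3 markers, at 3773 CPM against 6256 CPM. Its sums of distal convoluted tubule, principal cell, endothelial, podocyte, fibroblast, adrenal cortex and tubule injury markers were the highest of the 8. The fibroblast markers were at 865 CPM against a male median of 359 CPM and the injury markers at 939 CPM against 678 CPM. Their part in its values was not tested.

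**Figure D4:**
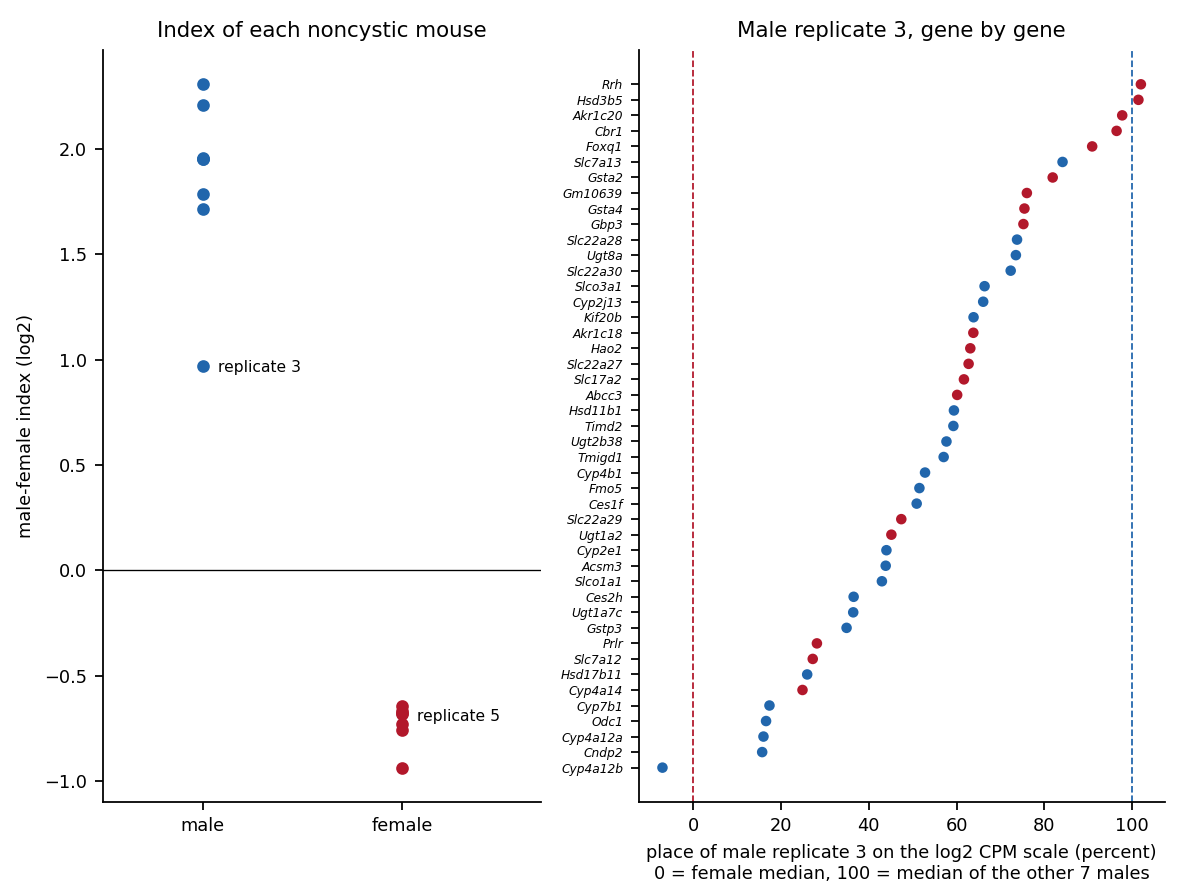
Left, the male-female index (log2) of each noncystic mouse, with male replicate 3 at 0.971 between the other males and the females. Right, the place of male replicate 3 for 45 genes, in percent of the log2 distance from the female median (0) to the median of the other 7 males (100), with genes higher in males in blue and genes higher in females in red; the places range from -6.98 to 102.

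The same sex difference was measured in the other genotypes, which by their labels share no mouse with the noncystic groups. In Pkd1KO mice, 7 male and 8 female, 4174 genes were called (27.3%), 2138 higher in males (14%) and 2036 higher in females (13.3%). In Pkd1KO+ciliaKO mice, 9 male and 6 female, 2242 genes were called (14.7%), 8.34% higher in males and 6.32% higher in females. Of the 4199 genes called in noncystic mice, 95.1% had the same sign in Pkd1KO and 97.1% in Pkd1KO+ciliaKO mice. In Pkd1KO mice 2563 were called with the same sign, which is 61.0% of the noncystic calls and 61.4% of the Pkd1KO calls, and 2 were called with the opposite sign. In Pkd1KO+ciliaKO mice 1706 were called with the same sign, which is 40.6% of the noncystic and 76.1% of the Pkd1KO+ciliaKO calls, and 1 with the opposite sign. A female of this genotype, replicate 6, had 20.3 CPM of Kif3a in a scaling over all 45 mice, where the other 5 females had 6.52 to 8.27 CPM and noncystic female replicate 5 had 6.65 CPM. The levels of both mice thus go against their labels, each lying near the other's group, and whether their labels were exchanged was not tested. Without Pkd1KO+ciliaKO female replicate 6, 1800 genes were called there. For Slco1a1 the log2 fold changes were 11.42, 10.33 and 10.27 in noncystic, Pkd1KO and Pkd1KO+ciliaKO mice. For Slc7a13 they were 9.80, 9.46 and 9.45, for Ugt1a2 -6.51, -7.54 and -3.79, for Prlr -3.52, -5.00 and -1.94, and for Cbr1 -2.78, -2.97 and -1.71. Of these values, that of Prlr in Pkd1KO+ciliaKO mice was not called (edgeR adjusted p = 0.0853). The difference between genotypes was tested as an interaction in a fit of all 45 mice. It was called for 2 genes between Pkd1KO and noncystic mice (0.0131%) and for 5 between Pkd1KO+ciliaKO and noncystic mice (0.0327%), with 1268 (8.29%) and 832 genes (5.44%) at an unadjusted p under 0.05. One of these, Hsd17b14, is a named gene: its log2 fold change was -1.92 in noncystic and -0.34 in Pkd1KO+ciliaKO mice, a difference of 1.60 ± 0.28 (SE, edgeR adjusted p = 0.0121). Without noncystic female replicate 5 and Pkd1KO+ciliaKO female replicate 6 the difference was 1.89 ± 0.26 (SE, edgeR adjusted p = 0.000147), and 1 and 2 genes were called in place of 2 and 5.

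**Figure D5:**
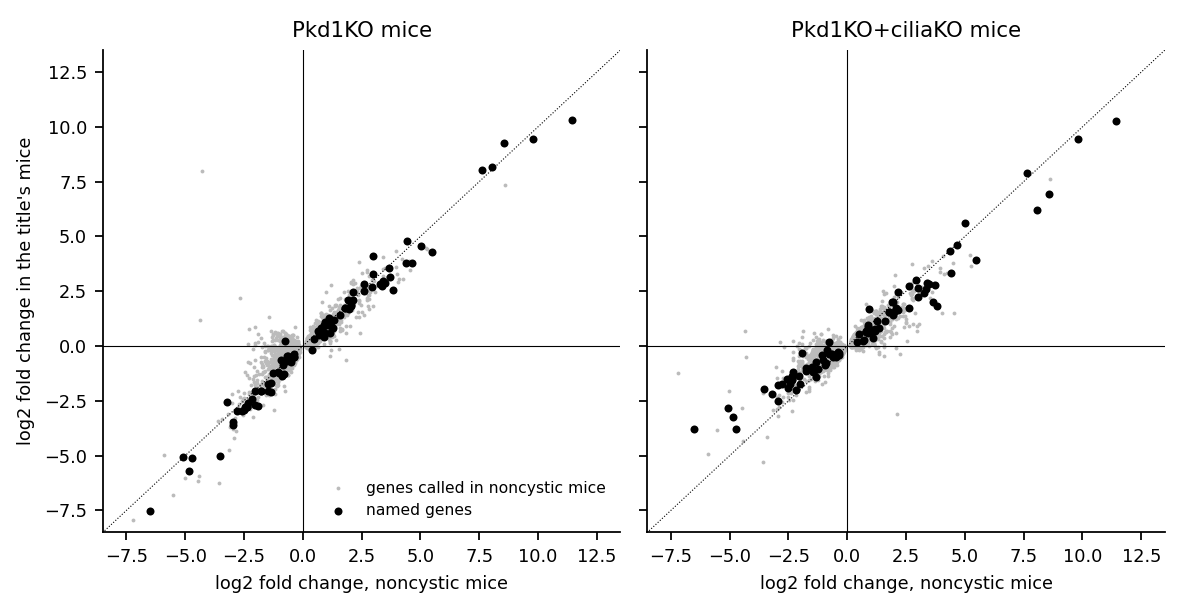
Log2 fold change of male over female in noncystic mice (horizontal) against the same in Pkd1KO mice (left) and Pkd1KO+ciliaKO mice (right), for the 4199 genes called in noncystic mice (grey) and the called named genes (black), with a dotted line of equal values. Of the grey points, 95.1% and 97.1% have the same sign on both axes.

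Markers of the tubule segments and of other cells were followed in the same mice. The 10 S3 markers summed to between 3773 and 6991 CPM in males and between 2949 and 3889 CPM in females, and 4 were called higher in males and 1 higher in females, with no TMM factors 3 and 4. The S3 list shares 8 of its 10 genes with the lists above, Slc7a13 among them. The 13 S1 and S2 markers summed to 8345 to 13631 CPM in males and 8779.9 to 11678 CPM in females, with 2 called in each direction. That is 30.8% of them, near the 27.5% of all genes tested. Markers of principal and intercalated cells of the collecting duct were higher in females, with 5 of 7 and 5 of 8 called, all in that direction, and medians of -0.42 and -0.37. Without the pair of mice 6 of 7 and 8 of 8 were called in that direction. The principal cell list includes Hsd11b2 and Aqp4, which are described above. The summed principal cell markers, with 1 X-linked gene that was not tested, were 419 to 679 CPM in males and 549.8 to 853 CPM in females, and the intercalated cell markers 308 to 363 CPM and 338 to 585 CPM. None of 6 podocyte, 7 endothelial and 8 fibroblast and pericyte markers was called by edgeR, although no list was at 0: their sums were 40.8 to 107 CPM, 72.2 to 244 CPM and 238 to 865 CPM over both sexes. At an unadjusted p under 0.05, and by DESeq2 and voom, 1 podocyte marker and 0 of the other markers passed. Of 10 tubule injury markers 6 were called, all higher in females, and their sum was 561 to 939 CPM in males and 1221 to 1689.9 CPM in females. Among them Spp1, osteopontin, was at -1.31 ± 0.12 (edgeR adjusted p = 4.36e-07) and Havcr1, a phosphatidylserine receptor of the injured proximal tubule, at -1.45 ± 0.51 (edgeR adjusted p = 0.0424), both named after their values were seen. In Pkd1KO and Pkd1KO+ciliaKO mice 1 and 2 injury markers were called higher in females. The part of these markers in the differences described above was not tested.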

How the data were processed

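Counts were the measurement tested. The authors deposited raw counts per gene, made by featureCounts 2.0.0 over GENCODE vM25 exons, with males and females in separate tables. Trimming was by fastp 0.20.0 and alignment by STAR 2.7.9 on build GRCm38.p6. Strand and multimapping options are not given in the sources used here. The deposited TPM tables were filtered by the authors for each sex apart (at least 6 counts in 20% of mice) and were used only to choose genes, and the TPM printed here were computed from the counts and gene lengths over the 15294 genes. Per the paper the isolated ribosomes were frozen and taken through RNA sequencing in a single batch. It does not say whether harvest and pulldown from the fresh kidneys were also a single batch.

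The 15 noncystic mice were compared by edgeR 4.0.16 (R 4.3.3) with TMM factors and the quasi-likelihood test, with Benjamini-Hochberg adjustment over all 15294 genes, 2-sided, without covariates. The SE is the absolute log2 fold change over the square root of F. The fit was tested on simulated data. Alternatives were DESeq2 1.42.0, limma 3.58.1 with voom, other scalings and filters, all 45 mice, a replicate block and mice left out. Same-numbered males and females did not deviate together, so that the number is only a name. The 49 pairs of libraries within a sex all differed by more than counting error, since chi-square over its degrees of freedom was at least 53.3. Replicates are separate mice.

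Named genes were 99: among called genes of at least 2-fold and 1 CPM in the higher sex, the 10 with the smallest p in each direction; from each functional list up to 2 called genes with the smallest p in each direction; a few receptor and target genes named outright; and all members of the lists of genes known for sex difference. Not each of the 99 is described in the text, and a few further genes that the rule names are not reported here. Genes outside this rule are said to be chosen after their values were seen, with some exceptions. The exceptions are the neighbouring genes, the genes called by the interaction test and the adrenal cortex marker Cyp11b2. The members and lists were chosen with earlier results of these data known. Sequence shared between genes was measured on an older annotation of the same build, GENCODE vM21. Promoters are from RefSeq; 11822 of 15294 genes and 74 of 99 named genes had an entry.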

Additional observations from a re-analysis of the deposited data

Results flagged for a closer look

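Single mice that stood apart from the rest of their sex by Dixon's test were found in 31 of 200 groups of values (15.5%). Chance gives about 1 in 20 for independent groups. These groups come from the same 15 mice, so that 1 mouse can be counted many times and the rates cannot be compared. Of the 31, 14 were male replicate 3. This mouse was low for Slc7a13 (124 CPM), Tmigd1 (148 CPM), Ces1f (193 CPM), Gstz1 (197 CPM) and Kap (6915 CPM). It was high for Slc22a29 (6.01 CPM), Slc17a2 (1.90 CPM), Abcc3 (11.8 CPM), Ugt1a2 (13.4 CPM), Hsd17b14 (8.60 CPM), Prlr (90.5 CPM), Slc7a12 (62.1 CPM) and Nr3c2 (69.0 CPM), and low for the male-female index (0.971).

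Female replicate 5 was low for Kif3a (6.47 CPM) and Ugt2b38 (5.23 CPM). Female replicate 1 was high for Slc22a29 (26.0 CPM), Gsta2 (512 CPM), Hnf4g (8.82 CPM) and Acot3 (66.4 CPM). Female replicate 3 was high for Hsd3b5 (0.623 CPM) and Cndp2 (812 CPM) and low for the index (-0.936). Single high females were replicate 4 for Slc2a4 (47.0 CPM), replicate 6 for Slco1a6 (272 CPM) and replicate 7 for Aqp4 (50.3 CPM). Among the other males, replicate 5 was low for Slco2a1 (21.2 CPM) and high for Socs2 (57.8 CPM), replicate 6 was low for Nr3c1 (129 CPM), and replicate 8 was low for Esr1 (36.5 CPM) and Kif3a (13.4 CPM).

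The sex difference itself differed between genotypes for 7 genes by the edgeR interaction test. Against noncystic mice, the log2 fold change of male over female in Pkd1KO mice differed by -1.24 for Tle2 and by 12.3 for Capn11, which was at a mean of 0.0786 CPM in noncystic males and 1.49 CPM in noncystic females. In Pkd1KO+ciliaKO mice it differed by -5.20 for Ankrd65, 1.60 for Hsd17b14, 3.04 for L3mbtl4, -2.59 for Nlrc4 and -2.12 for Sorcs1. Without noncystic female replicate 5 and Pkd1KO+ciliaKO female replicate 6, whose Kif3a levels go against their labels, Capn11, Hsd17b14 and L3mbtl4 were still called, and Tle2 (-1.18), Ankrd65 (-1.57), Nlrc4 (-1.72) and Sorcs1 (-1.94) were not.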

How the results depend on the processing

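Of the 99 named genes, between 92 and 99 kept direction and call under each alternative other than the test against a 2-fold change, under which 64 did. The total of 4199 called genes was between 3565 and 5425 when each mouse was left out in turn, with 1992 to 2838 higher in males and 1531 to 2587 higher in females. Voom called 6071 genes, 3273 higher in males and 2798 higher in females. Without noncystic female replicate 5 and Pkd1KO+ciliaKO female replicate 6, an alternative chosen after seeing the data, the sex difference differed from noncystic mice for 1 gene in Pkd1KO and 2 genes in Pkd1KO+ciliaKO mice. With no TMM factors 1297 genes were called higher in males and 4449 higher in females, and the median shift of -0.148 is the construction of that setting. Tested against a log2 fold change of 1, 243 genes were called, 148 higher in males and 95 higher in females. With genes chosen in Pkd1KO+ciliaKO mice the index of male replicate 3 was 2.57, again the lowest male, with males up to 4.35 and females from 0.497 to 0.685. Of the genes that were not called, 4 changed sign: Ghr with no TMM factors (-0.0405), Nr3c1 without the pair of mice (-0.00216) and with no TMM factors (-0.109), Kif3a without the pair (-0.158) and with no TMM factors (-0.125), and Pkd1 without the pair (-0.0825) and with no TMM factors (-0.0706). With each mouse left out in turn, Nr3c1 was at 0.00831 to 0.0766, Kif3a at -0.133 to 0.0989 (without male replicates 3, 4 and 5 at -0.00184, -0.00263 and -0.0116) and Pkd1 at -0.0596 to 0.133. The cause was not tested.

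Replicate numbers did not pair the mice: correlations of same-numbered males and females were -0.134 to 0.0463, and 0 of 7 matched their own number best. With the replicate block 3234 genes were called, 1799 higher in males and 1435 higher in females.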

Other observations

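Markers of other cells were called in part, against 15.4% of all genes tested called higher in males and 12.1% higher in females. Of 8 macrophage markers 1 was called higher in males by edgeR (12.5%), while the list had a median of -0.30 and ran from -0.63 to 0.41. Of 6 lymphocyte and mast cell markers 2 were called higher in females, Cd4 (-1.32 ± 0.30) and Ms4a2 (-1.69 ± 0.45). The 6 had a median of -0.37 and ran from -1.69 to 0.58. In Pkd1KO mice 1 was called in each direction, and in Pkd1KO+ciliaKO mice 0. All markers of this list together were at 0.903 to 2.51 CPM in males and 2.14 to 3.50 CPM in females. Of 6 adipocyte markers, with a median of -0.70, Retn (-1.86 ± 0.52) was called higher in females. These 3 genes were chosen after their values were seen. Of 3 adrenal cortex markers none was called (0 at an unadjusted p under 0.05, and 0 by DESeq2 and voom), with Cyp11b2, which makes aldosterone, at 0 in each mouse. Of 8 thick ascending limb and 7 distal convoluted tubule markers, 2 and 1 were called higher in females, and 3 and 4 without the pair of mice. With all mice these are 25% and 14.3% of the markers. Over all genes tested 12.1% were called higher in females, and 15.7% without the pair. Of the 15294 genes tested, 1342 were called with 1 sign in all 3 genotypes, 858 higher in males and 484 higher in females.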
